A study of Mus musculus with 6 samples.

Results

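The genes described here make cholesterol and fatty acids, move cholesterol through and out of the cell, or control both through the SREBP and LXR transcription factors. They form a list of 40 mouse genes, drawn up by pathway step, and a gene was kept where the platform annotation gives it a probe set of its own, the brightest probe set over the 6 arrays being used. That left 35 of the 40, out of 22180 genes tested in all. They comprise 16 of 18 sterol synthesis genes, 6 of 7 regulators, 4 of 5 genes of uptake and intracellular handling, both export genes and 7 of 8 genes of fatty acid synthesis. Acat2, Idi1, Nr1h2, Soat1 and Scd2 had no probe set of their own and were not analysed here. All 35 had a mean level at or above the median of all probe sets, so none was lost to a filter on low levels.

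The study took CD4+ T cells from mouse spleen with magnetic beads and kept them for 12 hours under stimulation through CD3 and CD28 (antibodies at 1 µg/ml) in RPMI medium with 10% fetal bovine serum. The 3 groups differed in the conditioned medium: control medium (ConCM), medium holding placental growth factor (PlGFCM), and control medium with IL-6 at 20 ng/ml (IL6_ConCM). PlGFCM came from clones of HEK-293, a human embryonic kidney line, that overexpress PlGF2. Which cells made ConCM is not stated in the labels. Each group held 2 replicate samples on Affymetrix whole-transcript arrays. The labels give no strain, age or sex of the mice. The labels do not say whether the 2 samples of a group were separate animals or cultures. In ConCM and IL6_ConCM the spread behind the p-values may thus be only technical. The 2 PlGFCM samples differed in Xist, with levels of 3.58 and 8.38, so their RNA did not come from the same pool of cells.

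Cholesterol is built from acetyl-CoA through mevalonate, farnesyl pyrophosphate, squalene and lanosterol. When membrane sterol is low, the escort protein Scap carries SREBP from the endoplasmic reticulum to the Golgi for cleavage, and the freed factor switches on genes of sterol and fatty acid synthesis; Insig proteins hold Scap back when sterol is plentiful. LXR, which senses oxysterols, drives export and part of fatty acid synthesis, and stimulated T cells are known to raise SREBP activity while they grow and to lower LXR activity.

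All values below are log2 levels of a probe set, 1 value per array, or differences between them. Levels of different genes are not compared, because probe sets differ in brightness. A gene is said to rise or fall where its limma adjusted p, over all 22180 genes, was under 0.05. An exact permutation test of 2 arrays against 2 cannot give a two-sided p below 0.333, so the tests rest on the spread shared by all arrays and genes. In bulk RNA, fewer expressing cells and less RNA per cell cannot be told apart.

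One array stood apart. PlGFCM replicate 2 had an Xist level of 8.38, against 3.58 to 3.95 on the other 5 arrays, and its levels of Eif2s3y, Kdm5d and Uty, which are Y-linked, were the lowest of the 6, so the list's results are also given without it. Median levels of the genes tested were 5.58 to 5.65 over the arrays. The T cell markers of the labelled cell type were high, with a mean level of 10.52 to 10.73 over 7 measured genes. Marker lists of B cells (mean level 6.52 to 6.59 over the 6 arrays, 9 genes), dendritic cells (5.65 to 5.90, 7 genes), NK and CD8 T cells (5.84 to 6.06, 8 genes) and erythroid cells and platelets (4.73 to 4.94, 4 genes) had ranges that overlapped between groups. The mean of 13 myeloid markers was 6.30 and 6.23 in PlGFCM, 6.12 and 6.19 in ConCM and 6.13 on both IL6_ConCM arrays, so both PlGFCM arrays were above the 4 others. In PlGFCM against ConCM the myeloid receptor Clec7a (-0.60) and the B cell genes Ms4a1 (-0.84) and Fcer2a (-0.86) fell. No other of the 48 measured marker genes passed, while 0.0812% of all genes fell and 0.352% rose. Each of these 3 calls was lost without PlGFCM replicate 1, PlGFCM replicate 2 or ConCM replicate 2, with no intensity trend and with all probe sets in the adjustment. Of the 9 B cell genes 6 had a positive change (46.4% of all genes), with a median of 0.21 over the 9. Cd79b (0.33) and Pax5 (0.31) were higher at an unadjusted p under 0.05 (4.19% of all genes). Of the 13 myeloid markers 8 had a positive change (46.4% of all genes), with a median of 0.16. Cd14 (0.67), Adgre1 (0.38), Mpeg1 (0.30) and Fcer1g (0.24) were higher at an unadjusted p under 0.05 (4.19% of all genes), and Clec7a alone was lower. The part of these cells in the results below was not tested.

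In PlGFCM the mean levels of sterol synthesis genes lay below those in ConCM along the whole route. All 16 measured enzymes (15 with array medians subtracted) had a negative log2 change against ConCM, with a median of -0.31 and a range of -0.70 to -0.02, while the median over all genes was -0.01 and 53.6% of all genes (49.5% of those at or above the median level) were below 0. Of the 35 genes on the whole list 4 fell (0.433% of all genes changed in either direction, 0.0812% fell and 0.352% rose) and none rose: the enzymes Hmgcs1, Fdps and Dhcr7 and the regulator Insig1. A further 15 were lower at an unadjusted p under 0.05 without passing, which makes 19 of 35, against 4.54% of all genes tested and 5.78% of the genes at or above the median level. The list was proposed with earlier results of these data in view, so these counts describe it and are not independent evidence of its direction.

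**Figure D1:**
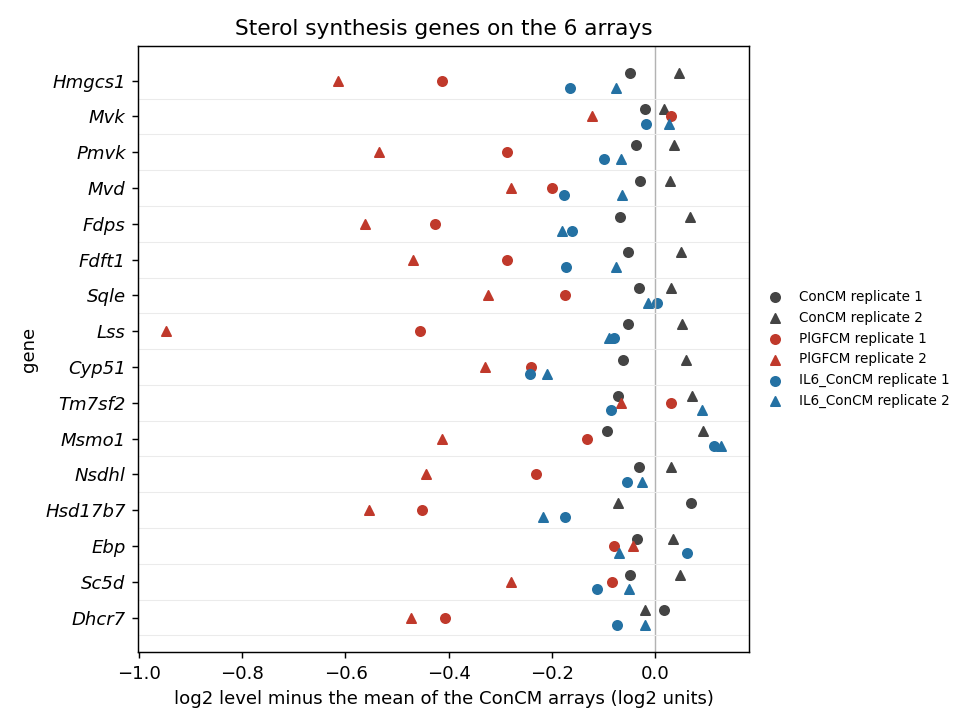
Log2 level of the 16 measured sterol synthesis genes on each of the 6 arrays, in log2 units relative to the mean of the ConCM arrays, ordered along the pathway; circles are replicate 1 and triangles replicate 2. For 14 of the 16 genes both PlGFCM arrays lie below both ConCM arrays, against 20.9% of all genes. PlGFCM replicate 2 lies below PlGFCM replicate 1 for 15, against 11389 of all 22180 genes.

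The first part of the route leads from acetyl-CoA units to farnesyl pyrophosphate. Hmgcs1, which condenses acetoacetyl-CoA with acetyl-CoA to HMG-CoA, had log2 levels of 10.02 and 10.11 with ConCM, 9.66 and 9.45 with PlGFCM, and 9.90 and 9.99 with IL6_ConCM. Both PlGFCM arrays were below the 4 others, and the IL6_ConCM arrays lay between. Its change in PlGFCM against ConCM was -0.51 ± 0.08 (SE), a level 1.43-fold lower, with a limma adjusted p of 0.0235. Fdps, which makes farnesyl pyrophosphate, the branch point to sterols, prenyl groups and dolichol, read 9.38 and 9.52 with ConCM, 9.02 and 8.89 with PlGFCM, and 9.29 and 9.27 with IL6_ConCM. The groups were in the same order and did not overlap, and Fdps fell by 0.49 ± 0.08 (limma adjusted p = 0.0272).

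Between these enzymes stand the mevalonate kinases and the decarboxylase. Pmvk, the phosphomevalonate kinase, was at 8.32 and 8.39 with ConCM, 8.07 and 7.82 with PlGFCM, and 8.25 and 8.29 with IL6_ConCM. Mvd, the decarboxylase that ends the mevalonate stage, was at 7.61 and 7.66 with ConCM, 7.43 and 7.36 with PlGFCM, and 7.46 and 7.57 with IL6_ConCM. For both genes the PlGFCM arrays were the lowest of the 6, but the differences of -0.41 (adjusted p = 0.150) and -0.24 (adjusted p = 0.492) did not pass. Mvk, the kinase that acts on mevalonate itself, stayed between 7.02 and 7.17 on all arrays with overlapping groups, at -0.05 with a 95% interval of -0.27 to 0.18.

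At the squalene stage PlGFCM was again the lowest group, while for Sqle the IL6_ConCM arrays overlapped ConCM. Fdft1, squalene synthase, the first enzyme committed to sterols, had levels of 9.80 and 9.90 with ConCM, 9.56 and 9.38 with PlGFCM, and 9.68 and 9.77 with IL6_ConCM. Sqle, squalene epoxidase, had levels of 8.41 and 8.47 with ConCM, 8.26 and 8.11 with PlGFCM, and 8.44 and 8.42 with IL6_ConCM. Lss, which closes squalene epoxide to lanosterol, had levels of 8.36 and 8.46 with ConCM, 7.95 and 7.46 with PlGFCM, and 8.33 and 8.32 with IL6_ConCM. In all 3 genes both PlGFCM arrays were below every other array, and PlGFCM replicate 2 was lower than replicate 1, by most in Lss. The changes of -0.38 (adjusted p = 0.0908), -0.25 (adjusted p = 0.391) and -0.70 ± 0.13 (adjusted p = 0.0573) did not pass. The Lss change was -0.46 without PlGFCM replicate 2.

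After lanosterol, demethylation and reduction lead to cholesterol. Dhcr7, the 7-dehydrocholesterol reductase of the final step, had levels of 9.09 and 9.06 with ConCM, 8.67 and 8.60 with PlGFCM, and 9.003 and 9.06 with IL6_ConCM. The IL6_ConCM arrays were at or just below ConCM and both PlGFCM arrays were lower by more than the spread within any group, and Dhcr7 fell by 0.44 ± 0.08 (limma adjusted p = 0.0345). Hsd17b7, the 3-ketosteroid reductase of the C4 demethylation complex, was at 8.11 and 7.97 with ConCM, 7.59 and 7.49 with PlGFCM, and 7.87 and 7.83 with IL6_ConCM. Nsdhl, the dehydrogenase of the same complex, was at 9.37 and 9.43 with ConCM, 9.17 and 8.95 with PlGFCM, and 9.34 and 9.37 with IL6_ConCM. Msmo1, its methyl oxidase, was at 8.30 and 8.48 with ConCM, 8.26 and 7.98 with PlGFCM, and 8.50 and 8.52 with IL6_ConCM. In these 3 genes both PlGFCM arrays were again the lowest, at changes of -0.50 (adjusted p = 0.0506), -0.34 (adjusted p = 0.179) and -0.27 (adjusted p = 0.485), none of which passed. The Msmo1 change was -0.13 without PlGFCM replicate 2 and -0.18 without ConCM replicate 2.

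Cyp51, the lanosterol demethylase, differed in that all arrays of PlGFCM and IL6_ConCM lay below ConCM and overlapped each other, with levels of 9.18 and 9.30 with ConCM, 8.996 and 8.91 with PlGFCM, and 8.99 and 9.03 with IL6_ConCM. It differed from ConCM by -0.29 (adjusted p = 0.236) in PlGFCM and by -0.23 (adjusted p = 0.706) in IL6_ConCM, and neither passed. Sc5d, the lathosterol desaturase, ran from 9.02 to 9.35 over the arrays with a change of -0.18 (interval -0.37 to 0.01) in PlGFCM, or -0.08 without PlGFCM replicate 2. Ebp, the sterol isomerase, ran from 8.14 to 8.28 with a change of -0.06 (interval -0.25 to 0.13), and Tm7sf2, a sterol C14 reductase, from 6.81 to 6.98 with -0.02 (interval -0.26 to 0.23). Mvk, Ebp and Tm7sf2 are thus the 3 enzymes whose change in PlGFCM was under 0.1 in size.

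Read array by array, the sterol genes were low on both PlGFCM arrays. PlGFCM replicate 1 was below both ConCM arrays for 14 of 16 genes and replicate 2 for 15 of 16, against 8592 and 8059 of all 22180 genes. The median difference from the ConCM mean was -0.24 for replicate 1 and -0.43 for replicate 2, against -0.09 and -0.06 for the IL6_ConCM arrays. Both PlGFCM arrays were below all 4 others for 11 of 16 sterol genes and 21 of the 35 genes on the list, against 7.34% of all genes and 6.73% of those at or above the median level. Within PlGFCM, replicate 2 was the lower array for 32 of the 35 genes, against 11389 of all 22180 genes. The median difference between the replicates was -0.15, against -0.0059 over all genes. Replicates differed by a median of 0.07 over the 35 genes in ConCM and 0.03 in IL6_ConCM.

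Without PlGFCM replicate 2, 14 of 16 sterol genes were still negative (53% of all genes), with a median of -0.24. The 4 genes that fell with all arrays did not pass. The 4 calls were likewise lost on leaving out PlGFCM replicate 1 or either ConCM array (the fits without PlGFCM replicate 1 and ConCM replicate 1 called Lss and Scd1, and Fads2, in their place), and with array medians subtracted, no intensity trend in the variance, or all 41345 probe sets in the adjustment.

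**Figure D2:**
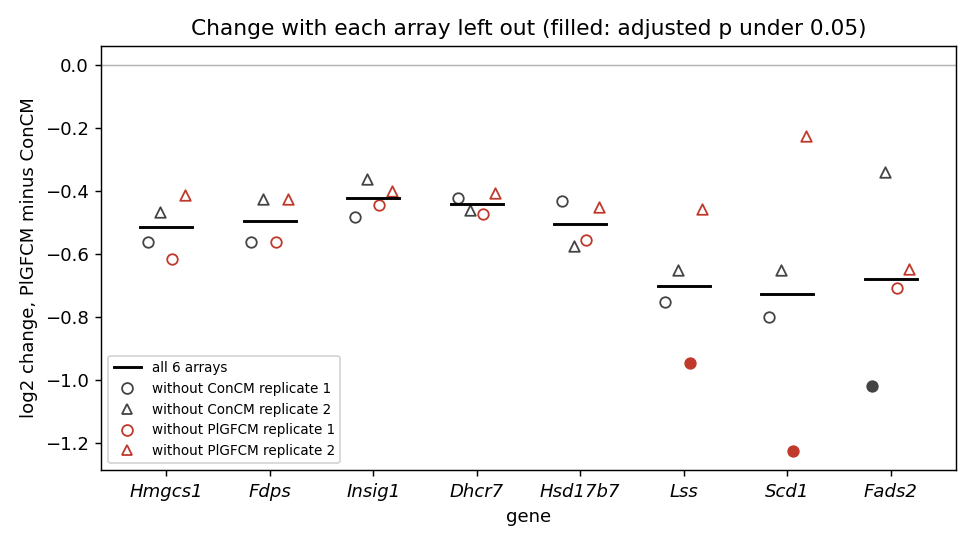
Log2 change in PlGFCM against ConCM of 8 genes when each of the 4 compared arrays is left out; the bar is the value with all 6 arrays, and a filled symbol has a limma adjusted p under 0.05 in that fit. Hmgcs1, Fdps, Insig1 and Dhcr7 stay between -0.62 and -0.36 and pass in none of the 4 fits, while Scd1 moves from -0.73 to -0.23 without PlGFCM replicate 2 and Fads2 from -0.68 to -0.34 without ConCM replicate 2.

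Among the regulators, Insig1 fell and the others did not pass. Insig1, itself a target of SREBP and the anchor that holds Scap in the endoplasmic reticulum, had log2 levels of 10.09 and 10.21 with ConCM, 9.75 and 9.71 with PlGFCM, and 10.00 and 9.98 with IL6_ConCM. The PlGFCM arrays were the lowest, IL6_ConCM lay between, and no groups overlapped; the fall in PlGFCM was 0.42 ± 0.07 (limma adjusted p = 0.0267). Its relative Insig2, which is not induced in the same way by SREBP, had levels of 7.16 to 7.24 in ConCM, 7.28 to 7.57 in PlGFCM and 7.32 to 7.36 in IL6_ConCM. The Insig2 change of 0.22 in PlGFCM (adjusted p = 0.611) did not pass, and was 0.37 without PlGFCM replicate 2 and 0.08 without PlGFCM replicate 1.

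None of the genes of the transcription factors passed. Srebf2, which encodes the SREBP form that mainly serves sterol synthesis, was at 10.21 and 10.13 with ConCM, 10.09 and 10.01 with PlGFCM, and 10.18 and 10.18 with IL6_ConCM. Both PlGFCM arrays were lowest, by a change of -0.12 with a 95% interval of -0.26 to 0.03 (adjusted p = 0.662). Srebf1, which encodes the forms that favour fatty acid genes, was at 8.20 and 8.14 with ConCM, 8.32 and 8.13 with PlGFCM, and 8.25 and 8.39 with IL6_ConCM, with overlapping groups and a change of 0.06 (interval -0.15 to 0.27). Its probe set gives 1 value for all Srebf1 forms, and RNA levels say nothing of cleaved protein. Scap was between 8.82 and 9.01 on the 6 arrays, at -0.02 (interval -0.20 to 0.16). Nr1h3, which encodes LXR alpha and is an LXR target in some cells, was at 6.03 and 5.78 with ConCM, 5.61 and 5.72 with PlGFCM, and 5.91 and 5.87 with IL6_ConCM, a difference of -0.25 in PlGFCM (adjusted p = 0.633) that did not pass and was -0.12 without ConCM replicate 1.

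Promoter windows of the listed genes were also looked at, and whether their motifs bear on the levels was not tested. RefSeq windows on GRCm38.p6, from 250 bases before to 50 after an annotated start, were found for 31 of the 40 genes and 27 of the 35 measured, which left out Fdps among others. They were searched on both strands for the sterol regulatory element core TCACNCCAC, the E-box CACGTG, which SREBP can also bind, the NF-Y box CCAAT, whose reverse complement reads ATTGG, and the GC box GGGCGG, whose reverse complement reads CCGCCC. Matches of different motifs may overlap. NF-Y and Sp1, which bind the NF-Y box and the GC box, are known partners of SREBP. The windows of the 4 genes with the smallest p in PlGFCM that have a single window are shown, 5′ to 3′ on the gene's strand, with matches in capitals: Hmgcs1 at chr13:119690101-119690400 and Insig1 at chr5:28071162-28071461, both on the plus strand, Hsd17b7 at chr1:169969156-169969455 on the minus strand and Lss at chr10:76531355-76531654 on the plus strand.
Hmgcs1: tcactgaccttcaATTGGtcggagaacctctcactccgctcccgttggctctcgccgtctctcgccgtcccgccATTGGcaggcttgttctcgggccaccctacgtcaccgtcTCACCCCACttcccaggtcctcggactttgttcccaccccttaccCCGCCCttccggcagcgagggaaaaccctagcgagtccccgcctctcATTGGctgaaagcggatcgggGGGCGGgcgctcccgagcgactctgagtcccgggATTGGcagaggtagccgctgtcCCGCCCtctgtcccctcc
Insig1: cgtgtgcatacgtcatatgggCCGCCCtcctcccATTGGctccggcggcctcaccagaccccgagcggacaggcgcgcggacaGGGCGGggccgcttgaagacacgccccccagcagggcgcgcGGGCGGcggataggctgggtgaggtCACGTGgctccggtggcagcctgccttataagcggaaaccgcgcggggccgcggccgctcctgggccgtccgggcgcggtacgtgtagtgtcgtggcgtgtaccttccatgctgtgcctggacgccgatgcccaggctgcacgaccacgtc
Hsd17b7: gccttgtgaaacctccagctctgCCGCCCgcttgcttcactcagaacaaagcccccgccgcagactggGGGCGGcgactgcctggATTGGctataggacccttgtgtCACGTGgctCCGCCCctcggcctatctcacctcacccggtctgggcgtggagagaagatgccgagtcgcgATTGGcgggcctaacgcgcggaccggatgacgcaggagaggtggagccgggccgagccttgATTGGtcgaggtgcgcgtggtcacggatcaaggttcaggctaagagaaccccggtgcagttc
Lss: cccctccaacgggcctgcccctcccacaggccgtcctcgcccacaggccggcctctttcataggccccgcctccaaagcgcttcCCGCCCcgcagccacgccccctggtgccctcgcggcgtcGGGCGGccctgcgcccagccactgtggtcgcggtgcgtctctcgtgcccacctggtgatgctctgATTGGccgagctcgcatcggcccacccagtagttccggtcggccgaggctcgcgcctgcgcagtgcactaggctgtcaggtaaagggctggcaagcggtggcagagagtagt

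Hmgcs1 holds 4 NF-Y boxes and, from -137 to -129 relative to the start, the single match to the sterol regulatory element core among all windows of the list. Insig1 holds 1 NF-Y box and 1 E-box, Hsd17b7 3 NF-Y boxes and 1 E-box, and Lss 1 NF-Y box. Dhcr7 has 3 windows, which hold 2 NF-Y boxes and 1 E-box between them. Each of the 13 measured sterol synthesis genes with a window held at least 1 NF-Y box in a window, against 42.1% of genes at or above the median level and 41.1% of all genes in the table. By windows rather than genes it was 13 of 16, against 37.2% and 37.4%. A GC box was held by 12 of the 13 genes (67% of genes at or above the median level) and an E-box by 3 of 13 (11.7%). The strict core of the sterol element was found in 1 of 13 genes (1.38%).

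**Figure D3:**
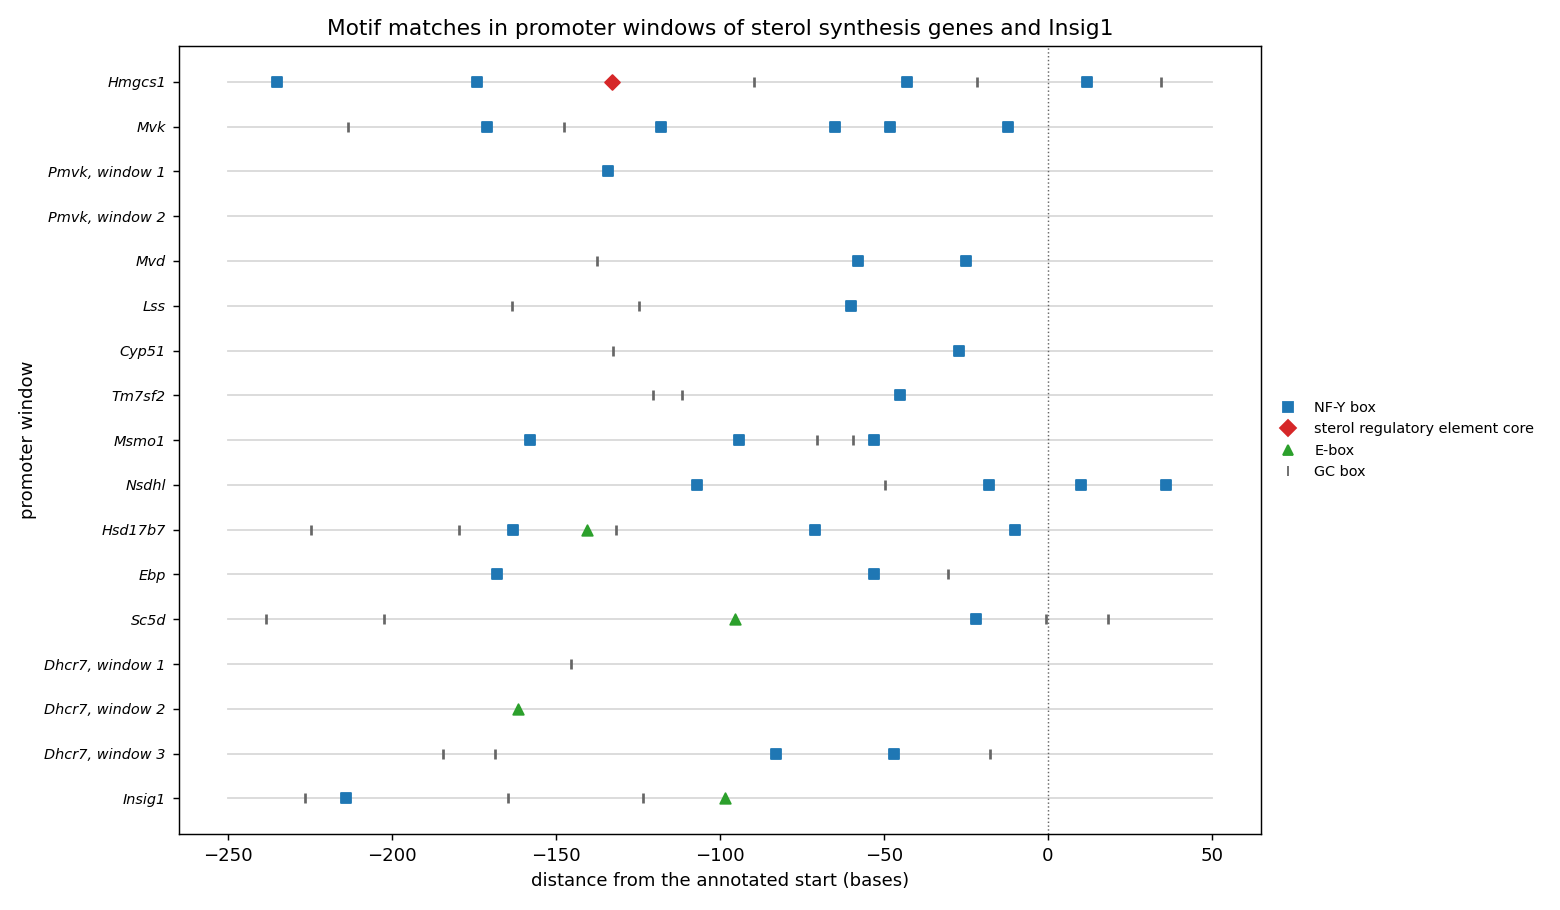
Positions of motif matches in the 300-base promoter windows of the 13 measured sterol synthesis genes with a window and of Insig1, as distance in bases from the annotated start. Every gene shown has a blue NF-Y square in at least 1 window, including Mvk, Tm7sf2 and Ebp, whose levels in PlGFCM differed from ConCM by under 0.1, and 1 window, that of Hmgcs1, has the sterol regulatory element core.

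The NF-Y box was present in 12 of the 14 list genes with a window that were lower in PlGFCM at an unadjusted p under 0.05, and in 9 of the other 13. Among the measured fatty acid genes 2 of 5 with a window held one.

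No gene of fatty acid synthesis passed in PlGFCM, although most measured levels were below ConCM. Of 7 measured genes 6 had a negative change and 5 were lower at an unadjusted p under 0.05 (53.6% and 4.54% of all genes), with a median of -0.28. Without PlGFCM replicate 2 the median was -0.17, and 1 of the 7 was lower at an unadjusted p under 0.05 (4.86% of all genes). Acly, which makes cytosolic acetyl-CoA from citrate for both pathways, had levels of 10.30 and 10.33 with ConCM, 10.20 and 10.14 with PlGFCM, and 10.28 and 10.34 with IL6_ConCM. Acaca, which makes malonyl-CoA, had levels of 8.43 and 8.35 with ConCM, 8.19 and 8.01 with PlGFCM, and 8.31 and 8.25 with IL6_ConCM. Fasn, the fatty acid synthase, had levels of 10.10 and 10.02 with ConCM, 9.89 and 9.68 with PlGFCM, and 10.10 and 9.98 with IL6_ConCM. In these 3 genes the PlGFCM arrays were the lowest of the 6, with changes of -0.15 (adjusted p = 0.549), -0.29 (adjusted p = 0.325) and -0.28 (adjusted p = 0.289). The Fasn change was -0.17 without PlGFCM replicate 2.

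For the desaturases Scd1 and Fads2 1 array carried much of the change, but not the same array in both. Scd1, which puts the double bond into stearate and is a target of both SREBP and LXR, read 6.73 and 6.88 with ConCM, 6.58 and 5.58 with PlGFCM, and 7.03 and 6.69 with IL6_ConCM. The low reading came from PlGFCM replicate 2: the change was -0.73 ± 0.25 with it (adjusted p = 0.380) and -0.23 without it, and without PlGFCM replicate 1 it was -1.23, which passed. Fads2, the delta-6 desaturase, read 6.11 and 6.79 with ConCM, 5.80 and 5.74 with PlGFCM, and 6.34 and 6.56 with IL6_ConCM; here the ConCM arrays disagreed, and the change of -0.68 (adjusted p = 0.232) became -0.34 without ConCM replicate 2 and, as a passing value, -1.02 without ConCM replicate 1. Fads1, the delta-5 desaturase, ran from 7.54 to 7.81 with -0.14 (interval -0.35 to 0.07), or -0.07 without PlGFCM replicate 2. Elovl6, which lengthens palmitate, was the one gene of the group with a positive change: its levels were 9.40 and 9.35 with ConCM, 9.57 and 9.34 with PlGFCM, and 9.53 and 9.68 with IL6_ConCM, at 0.08 in PlGFCM (adjusted p = 0.861).

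**Figure D4:**
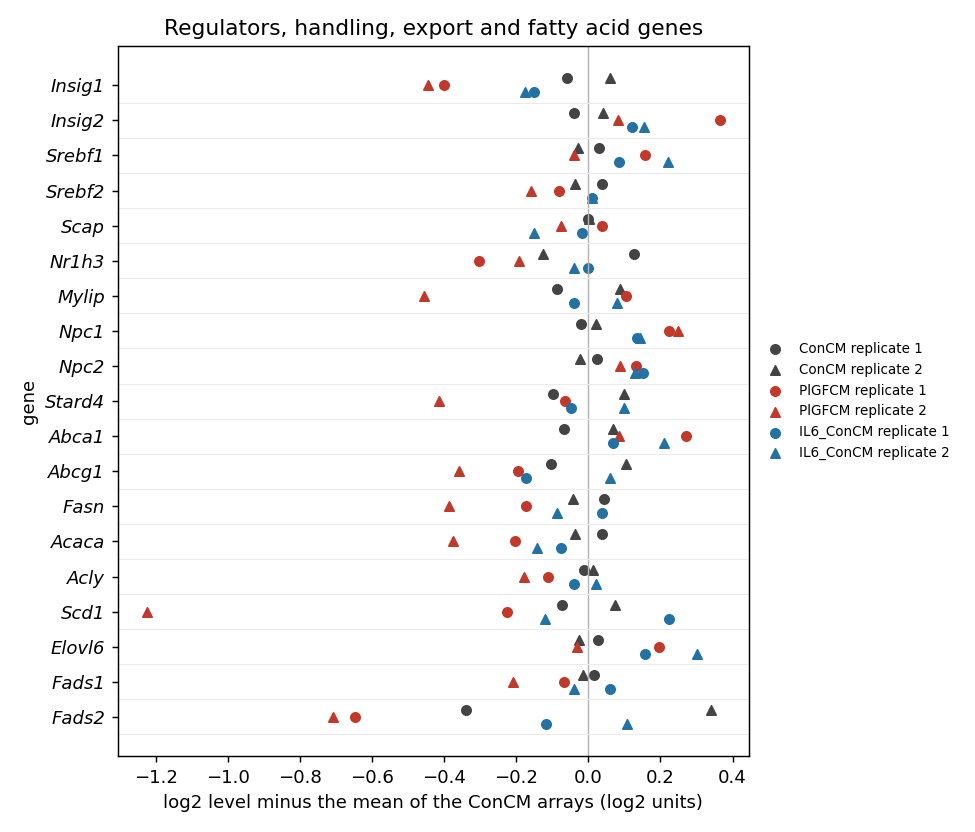
Log2 levels of the 19 measured regulators and genes of handling, export and fatty acid synthesis on each array, in log2 units relative to the mean of the ConCM arrays; circles are replicate 1 and triangles replicate 2. PlGFCM replicate 2 is the lowest array for all 7 fatty acid genes, against 3800 of all 22180 genes. Npc1 and Npc2 lie above ConCM on both PlGFCM and both IL6_ConCM arrays.

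Of the 4 genes that handle cholesterol inside the cell, none passed and 2 had positive changes: Npc1 and Npc2, which pass cholesterol out of the late endosome. Npc1 was at 8.36 and 8.40 with ConCM, 8.60 and 8.62 with PlGFCM, and 8.51 and 8.52 with IL6_ConCM, and Npc2 at 10.95 and 10.91 with ConCM, 11.06 and 11.02 with PlGFCM, and 11.08 and 11.06 with IL6_ConCM. All 4 treated arrays lay above both ConCM arrays in both genes. The changes in PlGFCM were 0.24 (adjusted p = 0.365) and 0.11 (adjusted p = 0.633) and did not pass; Npc1 was the 1 list gene of 35 that was higher at an unadjusted p under 0.05, against 4.19% of all genes, and it was not when its 2 probe sets were averaged. Both arrays of PlGFCM were above both of ConCM for 4 of the 35 genes, against 17.3% of all genes. A second and dimmer Npc1 probe set read 5.07 and 5.56 in ConCM and 5.51 and 5.32 in PlGFCM, with overlapping groups. Stard4, a soluble sterol carrier and SREBP target, ranged from 7.32 to 7.84 with a change of -0.24 (interval -0.52 to 0.04), or -0.06 without PlGFCM replicate 2. Mylip, an LXR-induced ligase that removes lipoprotein receptors, ranged from 7.14 to 7.70 with -0.18 (interval -0.52 to 0.16). Without PlGFCM replicate 2, its lowest array, the sign of the Mylip change turned, to 0.10.

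The export genes lay on opposite sides of ConCM. Abca1, the pump that loads cholesterol onto lipid-poor apolipoprotein, had levels of 6.48 and 6.61 with ConCM, 6.81 and 6.63 with PlGFCM, and 6.61 and 6.75 with IL6_ConCM, with a change of 0.18 in PlGFCM (interval -0.08 to 0.43, adjusted p = 0.731). Abcg1, which passes it on to mature HDL, had levels of 8.21 and 8.41 with ConCM, 8.11 and 7.95 with PlGFCM, and 8.14 and 8.37 with IL6_ConCM, and in PlGFCM a change of -0.28 (adjusted p = 0.492), or -0.17 without ConCM replicate 2. The Abca1 change was 0.27 without PlGFCM replicate 2 and 0.08 without PlGFCM replicate 1. Both are textbook LXR targets, and neither passed. Over the 5 measured LXR targets on the list (Abca1, Abcg1, Mylip, Srebf1 and Scd1) 2 changes were positive and 3 negative (53.6% of all genes were below 0), with a median of -0.18. Without PlGFCM replicate 2, 3 were positive and 2 negative (53% of all genes were below 0), with a median of 0.10, so the sign of the median rested on that array.

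In IL6_ConCM against ConCM none of the 35 genes passed in limma (0.113% of all genes changed, 0.0857% higher and 0.0271% lower). At an unadjusted p under 0.05, 2 were lower and 2 higher (3% and 2.62% of all genes). Of the sterol genes 13 of 16 were below 0 (53.1% of all genes; 11 of 16 after quantile normalization or with array medians subtracted). Their median was -0.08, and it was -0.12 without ConCM replicate 1 and -0.04 without ConCM replicate 2. The lower pair was Cyp51 and Insig1, at -0.23 and -0.16 (adjusted p = 0.706 and 0.835). The higher pair was Npc2 and Elovl6, at 0.14 and 0.23 (adjusted p = 0.812 and 0.786). Of the genes that fell in PlGFCM, Hmgcs1 was at -0.12 with a 95% interval of -0.30 to 0.06, Fdps at -0.17 with -0.35 to 0.01, and Dhcr7 at -0.05 with -0.21 to 0.12. The ConCM arrays enter this comparison and the one above alike. For 13 of 16 sterol genes the IL6_ConCM mean lay below that of ConCM and above that of PlGFCM. All 16 had a PlGFCM mean below ConCM, which fixes part of this order. Of the 11889 genes tested with PlGFCM below ConCM, 4993 held the order. Genes with an equally wide gap between ConCM and PlGFCM were not set apart. Over all genes the share was 22.5%. Genes in the reverse order are not in that share.

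**Figure D5:**
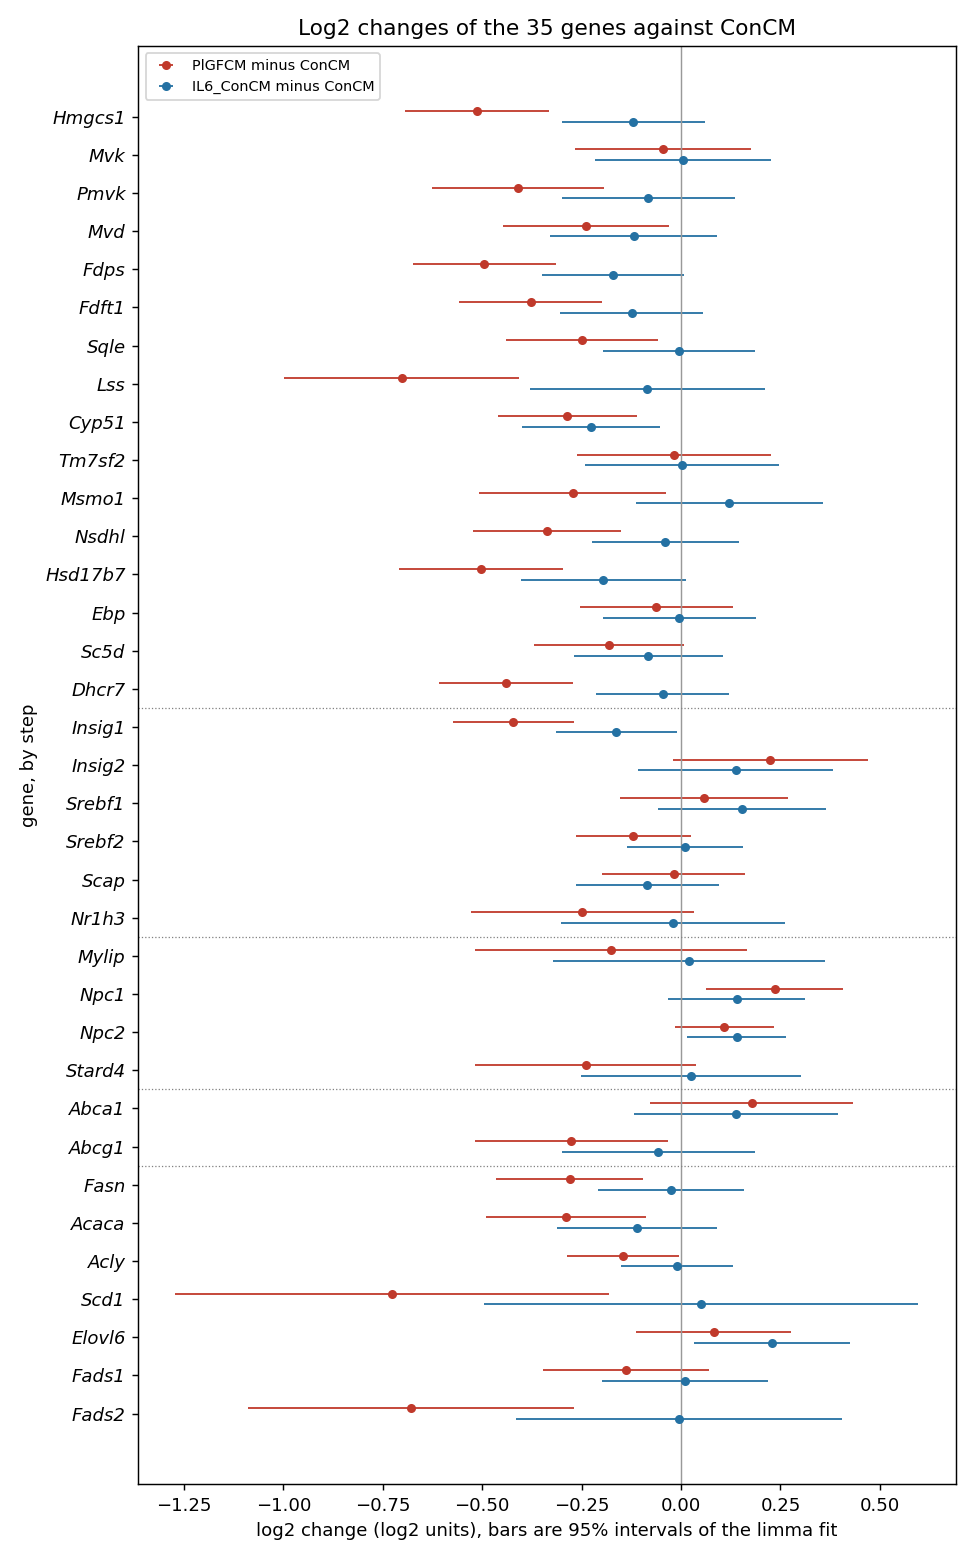
Log2 changes of the 35 genes in PlGFCM (red) and in IL6_ConCM (blue) against the shared ConCM arrays, in log2 units, with 95% intervals from the limma fit; dotted lines part sterol synthesis, regulators, handling, export and fatty acid synthesis. The red points of the sterol genes centre on -0.31 and the blue points on -0.08.

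Set directly against IL6_ConCM, PlGFCM had a lower mean level in all 16 sterol genes and 31 of the 35 genes on the list (50.9% of all genes), with medians of -0.28 and -0.20 against -0.003 over all genes. No gene passed in limma (0.0316% of all genes changed, all higher), while 14 of the 35 were lower and 0 higher at an unadjusted p under 0.05, against 1.81% and 2.56% of all genes and, for lower ones, 1.37% of those at or above the median level. Both PlGFCM arrays were below both IL6_ConCM arrays for 11 of the 16 sterol genes, against 14.9% of all genes. The smallest p belonged to Dhcr7 at -0.39 ± 0.08 (adjusted p = 0.199), Hmgcs1 at -0.39 ± 0.08 (adjusted p = 0.262) and Lss at -0.62 ± 0.13 (adjusted p = 0.301). Msmo1, whose IL6_ConCM arrays read above ConCM, differed by -0.39 and Insig1 by -0.26. Among fatty acid genes Fasn differed by -0.25, Fads2 by -0.67 and Scd1 by -0.78. Without PlGFCM replicate 2 the sterol median was -0.18, with 14 of 16 genes negative (50.1% of all genes), and the median of the 35 genes was -0.09. In that fit 8 of the 35 were lower and 0 higher at an unadjusted p under 0.05, against 3.13% and 3.39% of all genes. The differences then read -0.37 for Lss, -0.25 for Msmo1, -0.15 for Fasn and -0.28 for Scd1. With all 6 arrays in the fit, the rest of the pathway was checked in 5 further lists of 81 genes, 72 of them measured, drawn up by pathway role. In PlGFCM against ConCM 1 of the 72 rose, none fell, and 6 were higher and 7 lower at an unadjusted p under 0.05, with a median of -0.0048. Over all genes 0.352% rose, and 4.19% were higher and 4.54% lower at that p. The gene that rose was Gramd1a, which encodes a protein that moves accessible cholesterol from the plasma membrane to the endoplasmic reticulum. Its levels were 10.17 and 10.07 with ConCM, 10.54 and 10.57 with PlGFCM, and 10.38 and 10.31 with IL6_ConCM. No groups overlapped, and it rose by 0.44 ± 0.07 (limma adjusted p = 0.0190), which did not pass without PlGFCM replicate 1, PlGFCM replicate 2 or ConCM replicate 2, without the intensity trend, or with all probe sets in the adjustment. Its relative Gramd1b was at 8.40 and 8.23 with ConCM, 8.05 and 7.96 with PlGFCM, and 8.12 and 8.04 with IL6_ConCM, a change of -0.31 (adjusted p = 0.286) that did not pass.

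Other genes of these lists that stood nearest to the threshold can be placed beside their neighbours on the pathway. Tmem97, a sterol-regulated binding partner of Npc1, was at -0.32 (adjusted p = 0.309) in PlGFCM, and Scarb1, the HDL receptor, at -0.28 (adjusted p = 0.290). In the fatty acid list Slc25a1, the mitochondrial citrate carrier upstream of Acly, was at -0.20 (adjusted p = 0.398), Acsl4, an acyl-CoA synthetase, at -0.26 (adjusted p = 0.409), and Dgat1, which makes triglyceride, at 0.52 (adjusted p = 0.0901). Nfyb, a subunit of NF-Y, was at 0.32 (adjusted p = 0.276). Among LXR partners and targets Abca7 was at 0.27 (adjusted p = 0.471) and Pltp, the phospholipid transfer protein, at 0.25 (adjusted p = 0.521). None of these passed. In IL6_ConCM against ConCM, and in PlGFCM against IL6_ConCM, none of the 72 passed in limma; 4 and 3 were lower (3% and 1.81% of all genes) and 3 and 3 higher (2.62% and 2.56%) at an unadjusted p under 0.05. In IL6_ConCM the smallest p belonged to Gramd1a, at 0.22 (adjusted p = 0.491), and Rnf139, a sterol-sensing ubiquitin ligase, at -0.29 (adjusted p = 0.513).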

How the data were processed

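Gene expression was measured on 6 arrays, 2 each for ConCM, PlGFCM and IL6_ConCM, grouped by the treatment in the labels. The deposited table holds log2 levels for 41345 probe sets, which the authors made with the program Transcriptome Analysis Console, as recorded per the submitters' processing notes. How background and arrays were adjusted, which version was run and on which build is not given in the sources used here. That values are log2 follows from their range, and they were used as deposited. Of the probe sets 23521 had 1 gene symbol, and 23328 of their gene IDs were found in the RefSeq table, which changed 0 symbols. The brightest probe set per gene gave 22180 genes.

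All genes were fitted with limma 3.58.1 in R 4.3.3 (lmFit, eBayes with an intensity trend, 3 residual degrees of freedom) on all 6 arrays, with Benjamini-Hochberg adjustment over all 22180 genes, and the fit was tested on simulated data. Arrays give no read depth, so their number limits the precision. Named genes are all list genes with a probe set (values on every array for those that passed or had an unadjusted p under 0.05 in a comparison, and for Srebf1, Srebf2, Nr1h3, Abca1 and Abcg1), and from the other pathway lists those that passed and up to 3 per list with the smallest p. Genes and lists were chosen with earlier results of these data known. Alternatives numbered 18, of which 1, the adjustment over all probe sets, was chosen after seeing the data.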

Additional observations from a re-analysis of the deposited data

How the results depend on the processing

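The number of list genes that changed in PlGFCM against ConCM was 4. It was 0 with array medians subtracted, with no intensity trend, with all probe sets including unnamed ones in the adjustment, and in the fit with a replicate block. With any 1 of the 4 compared arrays left out, Hmgcs1, Fdps, Insig1 and Dhcr7 stayed between -0.62 and -0.36. Their calls were lost in each of these fits. The median of the sterol genes kept its sign in 18 of 18 alternatives in each comparison. Many of these could not move it, because they alter the test or the set of genes and not the fitted changes. It moved only with another normalization or with a compared array left out. In PlGFCM against ConCM it was -0.31 after quantile normalization and -0.28 with array medians subtracted. With 1 array left out it ran from -0.43 to -0.24 in PlGFCM against ConCM, and from -0.35 to -0.18 in PlGFCM against IL6_ConCM. In the 2 comparisons with IL6_ConCM no list gene passed under any of the 18 alternatives. Quantile normalization, either filter on low levels and a robust prior each added Lss and Hsd17b7, giving 6. Over all genes, 96, 25 and 7 changed in the 3 comparisons, against 5 to 173, 0 to 53 and 0 to 11 over the alternatives. The replicate block gave 62, 16 and 5. Deviations of same-numbered arrays correlated at -0.04, 0.11 and 0.03 between the pairs of groups. These correlations run over all genes, dim ones included, and cannot show whether the replicate numbers pair the samples. The labels tie no number to a shared animal or batch. Why the calls differ between settings was not tested. With 2 arrays a group, their number limits what can be called.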
